A study of Caenorhabditis elegans with 2 samples.

Results

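The piRNA genes of Caenorhabditis elegans were examined for binding by D2030.7, a protein with a C2H2 zinc finger domain whose gene (WBGene00008417) lies on the plus strand of chromosome I at 7588580 to 7590565 (WBcel235). All genes with the biotype piRNA in the Ensembl release 115 annotation were taken, which gave 15363 of 46926 annotated genes. They were divided by position into the left interval of chromosome IV (4500 to 7000 kb, 2816 genes), the right interval of IV (13500 to 17200 kb, 11388 genes) and genes elsewhere (1159, of which 510 lay on the rest of IV and 649 on other chromosomes). Binding had been measured by chromatin immunoprecipitation and sequencing (ChIP-seq) with an anti-GFP antibody. There was 1 group with 2 biological replicates per the labels: whole young adults of strain RW12302 at 62.5 hours, from larvae synchronised by bleaching and starvation. In them D2030.7 carried a CRISPR-inserted TY1::EGFP::3xFLAG tag (allele st12302). Whole animals mix germline and body cells, so a site used in few cells cannot be told apart from a site used weakly in many. Lists from an untagged strain or for other tagged proteins were not used, and the study has no second condition. The values therefore describe where the lists place this protein, with no control level beside them and no test between conditions.

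In this animal piRNAs are also called 21U-RNAs, after their length and their first base. They are short RNAs that the Piwi protein PRG-1 carries in the germline, where they guide silencing of foreign and some own transcripts. Each is made from its own small transcript by RNA polymerase II. Most genes sit in broad clusters on chromosome IV behind an upstream sequence known as the Ruby motif, and a set of proteins that includes PRDE-1, SNPC-4 and TOFU-5 acts at these promoters. A second kind, without the motif, arises at the start sites of other genes.

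The annotated genes carried these hallmarks. All were 21 nt long, and the first base was T in 96.2% of them. The right interval held 3078 piRNA genes per Mb at a median spacing of 165 bp, and the left interval 1126 per Mb at a median spacing of 335 bp. The motif CTGTTTCA, searched on each gene's own strand, lay within 60 bp upstream of 33.5% of piRNA genes (5149 of 15363; exact Clopper-Pearson 95% interval 32.8 to 34.3%). It lay there at 39.7% of genes in the left interval, 33.6% in the right interval and 31.6% of those on the rest of IV. Off chromosome IV the share was 6.78%. Its first base was at a median of 46 bp upstream, with quartiles of 45 and 47 bp. The same search found the motif at 0.330% of protein-coding genes and in 0.893% and 0.875% of windows of the same length tiled along the plus and minus strands of IV. The shorter core GTTTC, which is contained in CTGTTTCA, lay within 60 bp upstream of 74.2% of piRNA genes and 11.6% of protein-coding genes.

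Some of the piRNA genes nearest to the binding sites described below are shown first, so that the upstream sequence behind each class can be read. Each line gives 60 bases upstream in lower case and then the gene in capitals, read from the WBcel235 reference genome. CTGTTTCA is also in capitals or, where it is missing, the core GTTTC starting 31 to 60 bp upstream, in its copy nearest to the gene. The first 5 are cluster genes whose summits lie away from any promoter or structural RNA gene, and the sixth is a cluster gene whose summit lies at an snRNA gene. The seventh is a gene elsewhere inside a protein-coding gene, and the last 3 are genes elsewhere in promoter regions. Motifs did not divide the classes cleanly: 21ur-3338 and 2 other named cluster genes at structural RNA genes (21ur-9348 and 21ur-1009) have neither at that position. The gene 21ur-9572 elsewhere has the core, and another copy of it lies farther upstream in the same range, left in lower case.
21ur-7377: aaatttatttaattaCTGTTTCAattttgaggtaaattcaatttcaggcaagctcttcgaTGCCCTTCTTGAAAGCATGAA
21ur-15698: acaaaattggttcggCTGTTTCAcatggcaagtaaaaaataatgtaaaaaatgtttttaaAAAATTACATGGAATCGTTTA
21ur-5858: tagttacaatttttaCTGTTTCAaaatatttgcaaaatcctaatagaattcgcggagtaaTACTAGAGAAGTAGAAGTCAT
21ur-11151: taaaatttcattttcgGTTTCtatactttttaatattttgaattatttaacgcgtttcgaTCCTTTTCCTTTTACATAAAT
21ur-3443: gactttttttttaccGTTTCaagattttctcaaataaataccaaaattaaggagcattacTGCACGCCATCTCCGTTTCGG
21ur-3338: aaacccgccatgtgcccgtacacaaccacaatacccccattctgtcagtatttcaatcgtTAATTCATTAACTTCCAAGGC
21ur-9572: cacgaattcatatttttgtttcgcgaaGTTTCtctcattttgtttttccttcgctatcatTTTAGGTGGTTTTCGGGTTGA
21ur-13751: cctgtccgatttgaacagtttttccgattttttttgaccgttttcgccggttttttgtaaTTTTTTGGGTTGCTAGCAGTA
21ur-15059: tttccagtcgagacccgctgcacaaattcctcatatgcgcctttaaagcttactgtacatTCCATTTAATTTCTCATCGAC
21ur-11529: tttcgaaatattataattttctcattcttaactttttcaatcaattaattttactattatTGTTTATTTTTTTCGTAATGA
The first base is T in all of these genes but 21ur-15698, which begins with A. Printed stretches span, with gene and upstream bases together, IV:5265097-5265177, IV:14526061-14526141, IV:14876509-14876589, IV:15530867-15530947 and IV:15703944-15704024 on the minus strand, and IV:13600789-13600869, III:10807422-10807502, II:1320673-1320753, IV:2783382-2783462 and II:5062035-5062115 on the plus strand.

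D2030.7 peaks were rare at piRNA genes. A peak was placed by its summit, the base of highest signal, in the list that the authors thresholded on agreement between the pooled replicates (2777 peaks, called the main list here). Within 200 bp of a summit lay 47 of 15363 piRNA genes, or 0.306% (0.225 to 0.407%). Replicate 1's own list gave 42 genes and replicate 2's own list gave 33, a mean of 37.5 ± 6.36 (SD, n = 2). Of the other 31527 annotated genes, 9.49% lay that close to a summit of the main list. These include long genes, which offer a summit more sequence than a gene of 21 nt does. The count moved with the distance, to 24 genes within 100 bp and 145 within 500 bp. Of the 47 piRNA genes, 28 were near a summit in each replicate's own list as well.

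The shares differed by class. In the left interval 4 of 2816 piRNA genes (0.142%; 0.0387 to 0.363%) were near a summit, and in the right interval 25 of 11388 (0.220%; 0.142 to 0.324%). Elsewhere the number was 18 of 1159 (1.55%; 0.923 to 2.44%). The replicate lists kept this order, with 3 and 3 genes in the left interval, 23 and 19 in the right interval, and a mean of 1.16 ± 0.305% of the genes elsewhere (SD, n = 2). Intervals on shares cover counting error only, and neighbouring genes share summits, so intervals that allow for this sharing would be wider.

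Among the genes elsewhere, most of those near a summit lay in a protein-coding promoter window. A promoter window ran from 1000 bp upstream to 200 bp downstream of a protein-coding gene's 5′ end. Of 283 piRNA genes elsewhere inside such a window, 15 were near a summit (5.30%; 3.00 to 8.59%). Of the 876 outside, 3 were (0.342%; 0.0707 to 0.998%), a share close to that of the clusters. Of all protein-coding genes, 9.79% had a main-list summit anywhere in the promoter window, a longer stretch than 200 bp on each side of a 21 nt gene. In the clusters 0 of 419 piRNA genes in a promoter window were near a summit in the left interval (upper limit 0.877%). In the right interval 4 of 1153 were (0.347%; 0.0946 to 0.886%), beside 21 of 10235 outside such windows (0.205%; 0.127 to 0.313%), and these 2 intervals overlap. A window places the piRNA gene and does not make its summit a promoter peak. Of the 17 summits at genes elsewhere, 2 lay at a tRNA gene as well as in a promoter window. None of the 15 in the right interval lay in a promoter window without a structural RNA gene within 200 bp.

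Other small RNA genes in the same intervals were bound far more often. In the right interval 28 of 32 tRNA genes (87.5%; 71.0 to 96.5%) had a main-list summit within 200 bp, with 28 and 19 in the replicate lists. Of 8 snoRNA genes there, 5 had one, and of 8 snRNA genes 4 had one. In the left interval the counts were 4 of 9 tRNA genes, 6 of 10 snoRNA genes and 5 of 8 snRNA genes. None of the 19 miRNA genes of the 2 intervals had a summit. Of the 179 main-list summits in the 2 intervals, 54 lay at structural RNA genes, 65 in promoter windows and 60 at neither.

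The positions of summits around the 5′ ends of the genes differed between the classes. Around genes of the right interval, the 100 bp bins within 200 bp held a mean of 0.527 summits per 1000 genes, against 1.49 in all bins farther out to 1000 bp. Their ratio was 0.353 in the main list, 0.431 in replicate 1 and 0.507 in replicate 2. For the left interval the means were 0.355 and 0.710, a ratio of 0.50, but the replicate lists gave ratios of 1 and 0.80, so no dip was seen in replicate 1. Elsewhere the near bins were the higher ones, at 3.67 against 1.62 summits per 1000 genes, a ratio of 2.27 in the main list, 2.50 in replicate 1 and 1.24 in replicate 2. The highest main-list bin there was the 100 bp just upstream of the 5′ end, at 8.63 summits per 1000 genes, and it stood at 6.90 and 5.18 in the replicate lists. The tRNA genes had 188 summits per 1000 genes and bin near the 5′ end against 17.97 farther out. Protein-coding genes had 10.1 against 5.15, a ratio of 1.96 in the main list, 1.98 in replicate 1 and 1.85 in replicate 2. Their highest main-list bin, from -200 to -101 bp, held 20.7. Higher near bins were thus not particular to piRNA genes elsewhere.

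**Figure D1:**
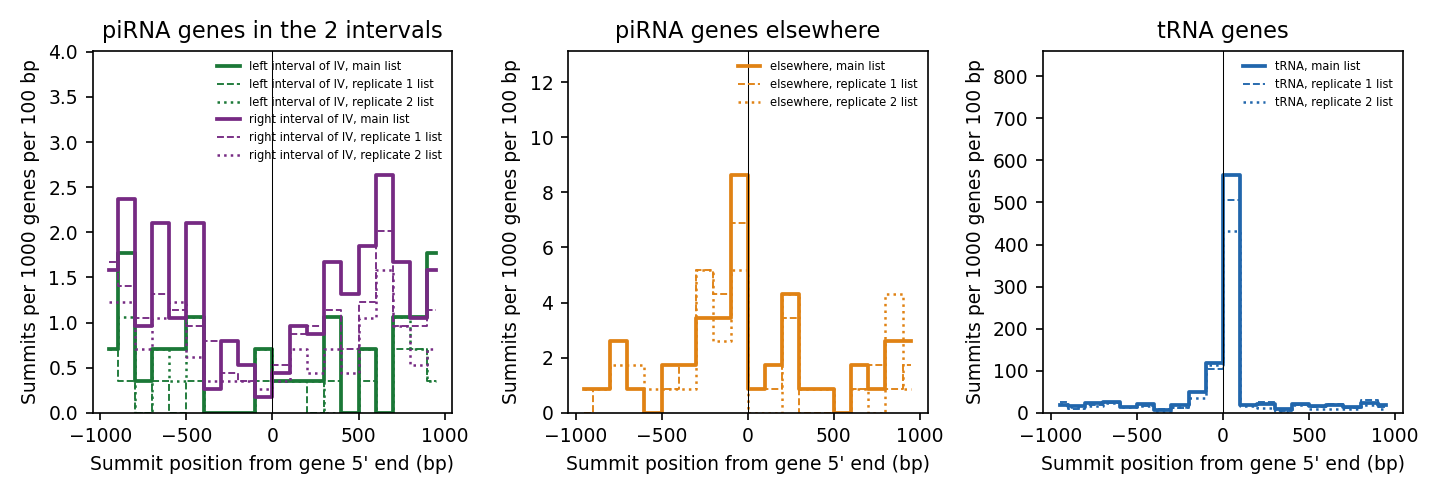
Summits per 1000 genes in 100 bp bins around the 5′ ends of piRNA genes in the 2 intervals (left), piRNA genes elsewhere (middle) and tRNA genes (right), with position in bp on the x axis, each panel on its own y scale. Solid lines are the main list and broken lines each replicate's own list; the right-interval line dips around the 5′ end, the line for genes elsewhere reaches 8.63 just upstream of it, and the tRNA line reaches 565.

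Seen over whole intervals, the clusters held about as many peaks as the rest of the chromosome. The left interval had 65 main-list summits (26 per Mb), the right interval 114 (30.8 per Mb), the rest of IV 321 (28.4 per Mb) and the other chromosomes 2277 (27.5 per Mb). The density of the left interval over the rest of IV was 0.915 in the main list, 0.864 in replicate 1 and 1.12 in replicate 2. For the right interval the ratios were 1.08, 1.01 and 0.918. The mean of the replicate ratios was 0.992 ± 0.180 for the left and 0.966 ± 0.0674 for the right interval (SD, n = 2), and both means departed from 1 by less than the SD. The densities also stood beside unequal numbers of protein-coding genes, 193, 124 and 207 per Mb in the left interval, the right interval and the rest of IV, and their part in the ratios was not tested. A promoter summit was found at 7.47%, 7.63% and 7.35% of those genes, beside 7.15% of all 19973 protein-coding genes.

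Splitting the summits by what lay near them showed that the right interval had a different make-up. Each summit was put in 1 class: within 200 bp of a structural RNA gene (tRNA, snRNA, snoRNA, rRNA or miRNA), otherwise in a promoter window, otherwise neither. Promoter summits made up 26.3% of the right interval's summits and 53.3% of those on the rest of IV, at 8.11 and 15.1 per Mb. Summits at structural RNA genes stood at 10.5 against 4.96 per Mb. The right interval held 32 tRNA genes in 3.7 Mb and the rest of IV 30 in 11.3 Mb, with a summit at 87.5% and 73.3% of them. The snRNA, snoRNA and miRNA genes numbered 8, 8 and 10 in the right interval and 25, 41 and 31 on the rest of IV. The part of gene content in these densities was not tested. Summits of neither class stood at 12.2 against 8.32 per Mb, a ratio of 1.46. Without promoter summits the right interval's ratio to the rest of IV was 1.75. The left interval's ratios to the rest of IV were 0.925 for promoter summits, 1.21 for those at structural RNA genes and 0.721 for neither class.

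Bins of 500 kb showed no step at the clusters. The bins end at base 17000000 of IV, so the last part of the right interval (to 17200 kb) and of the chromosome is in none of them. The 7 bins of the right interval held 10 to 18 main-list summits each (median 17), the 5 bins of the left interval 7 to 18 (median 15), and the 22 bins of the rest of IV 7 to 34 (median 13). The bin with the most piRNA genes, 1915, had 18 summits, and 13 in each replicate's list. The longer ranked list of 67021 candidate peaks, from which the main list was drawn, was thinner in the clusters than over the rest of IV as a whole. It had 470 candidates per Mb in the left interval and 519 in the right interval against 707 on the rest of IV, ratios of 0.665 and 0.734. This was not particular to the clusters. Bins of the rest of IV held 379 to 485 candidates up to base 4500000, but 218 to 322 from base 7000001 to 11000000. Bins of the left interval held 191 to 302 and those of the right interval 202 to 299.

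**Figure D2:**
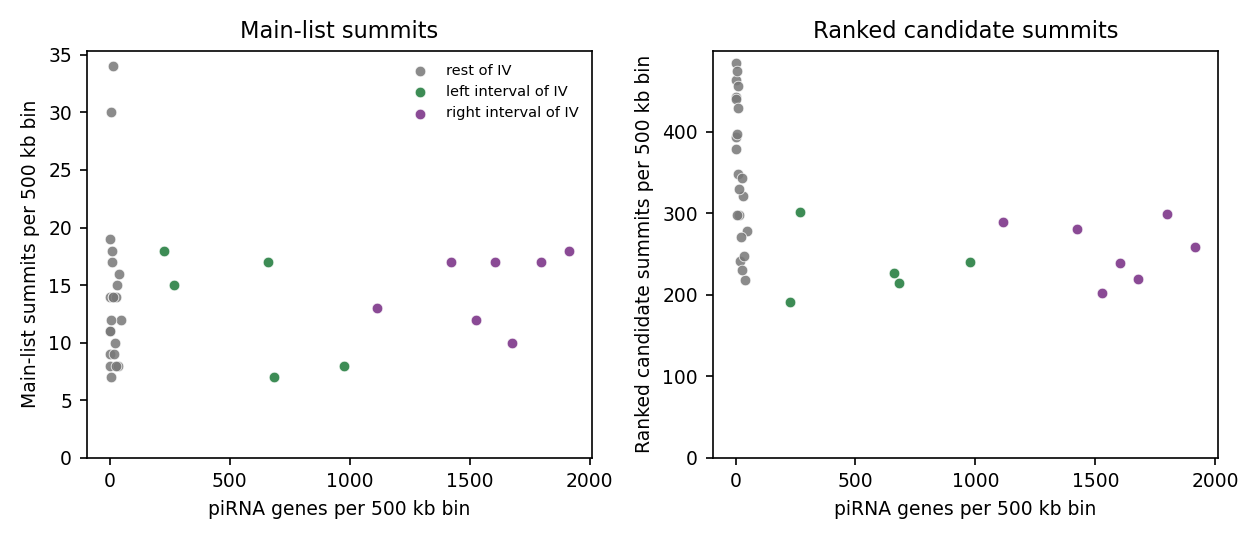
Each point is a 500 kb bin of chromosome IV up to base 17000000. The x axis gives piRNA genes per bin and the y axis summits per bin, for the main list (left) and the ranked candidates (right). Main-list summits per bin range from 7 to 34 on the rest of IV and from 7 to 18 in the 2 intervals. Candidates per bin range from 218 to 485 on the rest of IV and from 191 to 302 in the 2 intervals, so the ranges overlap.

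Within the clusters, peaks were sparser close to piRNA genes than farther from them. Sequence within 200 bp of a piRNA gene made up 2.88 Mb of the 2 intervals, or 46.4% of them, and held 20 of their 179 main-list summits (11.2%). That is 6.95 summits per Mb, against 47.9 per Mb in the remaining 3.32 Mb, a ratio of 0.145. The ratio was 0.153 in replicate 1 and 0.147 in replicate 2 (mean 0.150 ± 0.00452, SD, n = 2). The counts near piRNA genes behind these were 17 and 14 summits, so the ratios carry counting error that an SD of 2 values measures poorly. In the main list the ratio was 0.194 in the left and 0.112 in the right interval. With promoter windows and the surroundings of structural RNA genes removed, from summits and sequence alike, 9 summits lay near piRNA genes and 51 away, 3.59 against 19.4 per Mb and a ratio of 0.185.

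The candidates were thinner near piRNA genes too, but less so. They stood at 283 per Mb near piRNA genes and 686 per Mb away, a ratio of 0.413. The sequence itself differed: GC content was 29.5% near piRNA genes and 35.9% away from them, and its part in the summit densities was not tested.

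**Figure D3:**
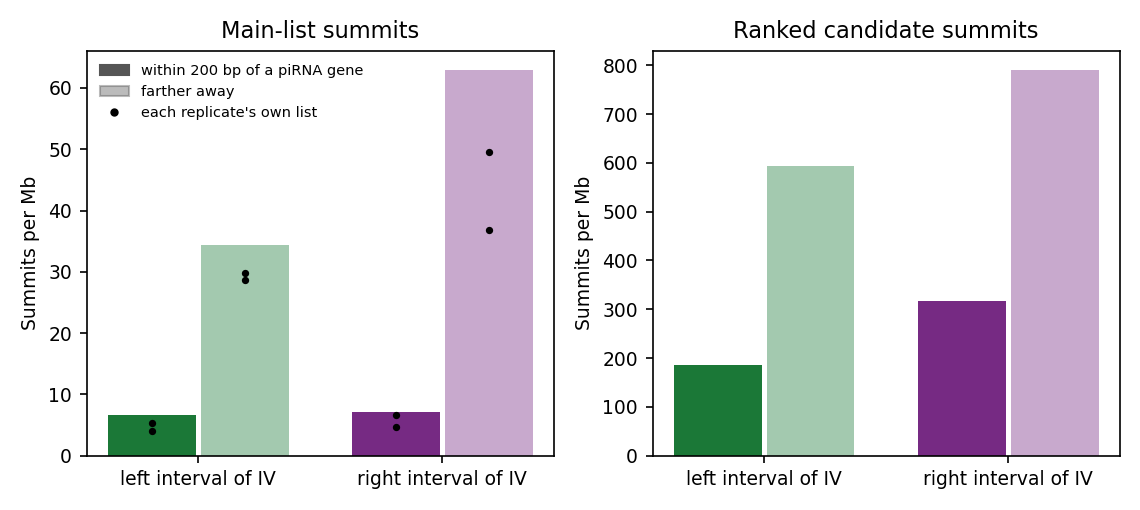
Summits per Mb in the sequence within 200 bp of a piRNA gene (dark bars) and farther away (pale bars) in each interval of IV, for the main list (left panel, with each replicate's own list as dots) and the ranked candidates (right panel). The dark bars are lower in both intervals, at 6.65 against 34.3 per Mb and 7.05 against 62.9 per Mb in the main list. Replicate dots lie below the tops of the bars. The replicate lists hold 2464 and 1811 peaks beside 2777 in the main list, and the part of list length was not tested.

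Distances told the same. In the right interval the median base was 145 bp from the nearest piRNA gene, and the median main-list summit 928.5 bp, with 1005.5 bp in replicate 1 and 838 bp in replicate 2. Bases more than 1000 bp from any piRNA gene made up 20.7% of that interval and held 56 of its 114 summits (49.1%). In the left interval the median base was 572 bp and the median summit 3886 bp away. The summit with the highest signal in each interval, picked out after the values were seen, was not within 200 bp of a piRNA gene. The left interval's highest signal (955; the authors' own unit, taken as deposited) was 17627 bp from a piRNA gene in the promoter window of rpl-20, a ribosomal protein gene. In the right interval the highest (909) lay 346 bp from one, outside promoter windows and away from structural RNA genes.

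Taken over the whole of IV, candidates within 200 bp of piRNA genes became main-list peaks less often than the other candidates. Over all chromosomes 4.14% of the 67021 ranked summits were in the main list. On IV the share was 2.85% at piRNA genes (25 of 877; 1.85 to 4.18%) and 4.66% of those not at piRNA genes (475 of 10197; 4.26 to 5.09%). In replicate 1's own lists the 2 shares were 3.09% and 6.20%, and in replicate 2's 4.02% and 6.44%. The ratio of these shares was 0.612 in the main list, 0.498 in replicate 1 and 0.624 in replicate 2. It changed with the distance, to 0.388 within 100 bp and 1.02 within 500 bp, so a lower share held only close to piRNA genes.

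Class by class, right-interval candidates at a structural RNA gene had like main-list shares whether a piRNA gene was near or not. The shares were 72.7% (8 of 11, interval 39.0 to 94.0%) and 75.6% (31 of 41, interval 59.7 to 87.6%). The replicate lists gave 90.9% against 80% and 77.8% against 60.6%, so with 11 candidates the likeness is loose. For candidates in promoter windows the shares were not alike. None of the 21 promoter candidates at piRNA genes in the left interval (upper limit 16.1%) and none of the 74 in the right interval (upper limit 4.86%) were in the main list, against 12.8% (35 of 274) and 14.4% (30 of 208) of those not at piRNA genes. Both replicates' own lists also had none of the first kind. On other chromosomes the promoter candidates at piRNA genes passed in 9 of 52 cases (17.3%; 8.23 to 30.3%), beside 8.79% of the others.

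Candidates of neither class had a background share of 1.59% over all chromosomes. Within the right interval 7 of 591 such candidates at piRNA genes passed (1.18%; 0.477 to 2.43%), against 38 of 994 not at piRNA genes (3.82%; 2.72 to 5.21%). The replicate lists gave 0.907% against 4.77% and 1.23% against 4.77%. For candidates of the left interval the shares were alike, 1.75% (2 of 114) and 1.74% (13 of 745). The excess over background in the right interval was therefore among candidates away from piRNA genes.

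**Figure D4:**
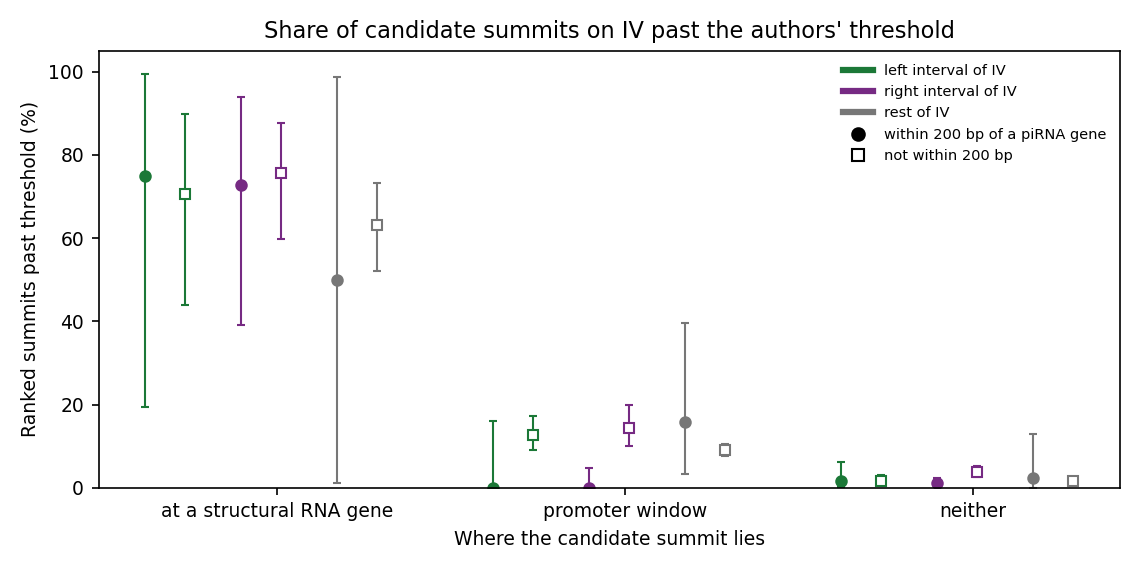
Percentage of ranked candidate summits on chromosome IV that were in the main list, by what lay near them, for summits within 200 bp of a piRNA gene (filled circles) and not (open squares); bars are exact 95% binomial intervals. Promoter candidates at piRNA genes in the 2 intervals sit at 0%, those not at piRNA genes at 12.8% and 14.4%, and candidates at structural RNA genes at 63.2 to 75.6%, apart from the 2 at piRNA genes on the rest of IV, at 50%.

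The 37 main-list summits within 200 bp of a piRNA gene are the binding that remained. They were 1.33% of the main list, beside 1.38% in each replicate's own list and 1.52% of the ranked candidates. Of them 13 lay at a structural RNA gene, 12 in a promoter window and 12 at neither. The left interval had 5 (3 at structural RNA genes, 2 at neither), the right interval 15 (8 and 7) and the genes elsewhere 17, of which 12 were promoter summits. Their signals ran from 4.12 to 514 with a median of 138, beside a median of 130 for the whole list. Peaks in both replicates' lists overlapped 23 of the 37 (62.2%), beside 52.9% of all main-list peaks, and 7 overlapped a peak in neither. The summits farthest from a gene yet counted were those at 21ur-6325 and 21ur-8864, each 197 bp away, and the nearest left out were 207 bp from 21ur-12854 and 215 bp from 21ur-53.

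**Figure D5:**
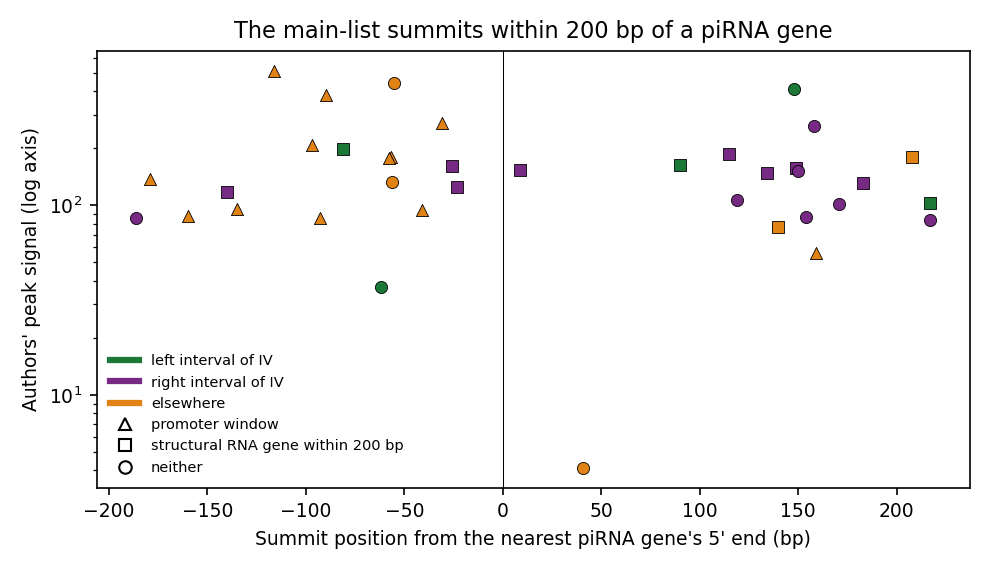
The 37 main-list summits within 200 bp of a piRNA gene, by position from the 5′ end of the nearest piRNA gene in bp (negative is upstream) and the authors' signal on a log axis; colours give the class of piRNA gene and symbols what else lies there. Promoter summits (triangles) all belong to genes elsewhere and lie upstream in 11 of 12 cases, and the lowest point, at 4.12, is 21ur-13952.

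Elsewhere in the genome, 4 of the 6 highest summits at piRNA genes were promoter peaks just upstream of the 21 nt gene; the second highest, at 21ur-9572, lay outside promoters. The highest was at 21ur-13751 on chromosome II, at a signal of 514, with overlapping peaks of 331 in replicate 1 and 187 in replicate 2. It lay 116 bp upstream of the piRNA gene in the promoter window of vig-1, a component of the RNA-induced silencing complex. Signals of separate lists are on separate scales, so the replicate values show presence in each list and not a difference between replicates. The summit at 21ur-12279 (382; 246 and 140) lay 90 bp upstream, within atp-1, a gene for a subunit of the mitochondrial ATP synthase. The summit at 21ur-15059 (274; 151 and 120) lay 31 bp upstream in the promoter window of Y54G2A.12. The summit at 21ur-11529 (208) lay 97 bp upstream in that of smc-5, a gene of the SMC-5/6 DNA repair complex; it had a peak of 136 in replicate 1's list and only an unthresholded candidate of 82.6 in replicate 2. Over the 12 promoter summits the median position was 91.5 bp upstream of the piRNA gene's 5′ end, and none of their nearest piRNA genes had CTGTTTCA within 60 bp upstream. The motif was rare among such genes in general. It lay there at 14.5% of all 283 piRNA genes elsewhere in a promoter window. For the 173 of these off chromosome IV, where 9 of the 12 summits lay, the share was 3.47%. The absence of the motif thus does not set the genes near summits apart.

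Outside promoters, 3 summits at genes elsewhere remained. The summit at 21ur-9572 on chromosome III (441; 254 and 194) lay 55 bp upstream of the piRNA gene in an intron of klp-7, which encodes a microtubule-depolymerising kinesin. The summit at 21ur-15588 (133) lay in an exon of sec-61.B, a gene of the protein translocation channel, and had a thresholded peak of 83.9 in replicate 2 alone. That at 21ur-13952 was the weakest of the 37 in the main list, at 4.12, yet overlapped peaks of 71.6 and 83.3 in the replicate lists. The 6 highest of the class also included 21ur-12937 (180; 110 and 77.4), which lay at a tRNA gene.

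In the left interval the highest signal at a piRNA gene was at 21ur-7377 (410; 289 and 118), whose upstream sequence holds the motif. This summit lay 148 bp downstream of the piRNA gene's 5′ end, next to the ncRNA gene F36H12.65 and a pseudogene. The same peak interval was listed again with another summit of signal 36.9, 62 bp upstream of the 5′ end, so 2 of the 5 summits of the left interval were of 1 peak. The other 3 lay at structural RNA genes: 21ur-9348 (199; 103 and 86.7) at the snoRNA gene C06E7.95, 21ur-5229 (162; 80.6 and 79.1) at a tRNA gene and 21ur-8864 (103) at the snRNA gene F54D8.7, with a thresholded peak of 54.7 in replicate 2 alone.

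In the right interval 8 of 15 summits at piRNA genes were at structural RNA genes. Among the 6 highest were 21ur-3160 (187; 99.9 and 90.6) and 21ur-753 (157; 74.2 and 73.4), each at a tRNA gene, and 21ur-1009 (162; 77.1 and 74.7), at the snoRNA gene Y73F8A.1175 in an intron of pkd-2, a polycystin channel gene of male sensory neurons. The summit at 21ur-3338 (154; 77.3 and 79.1) was the 1 summit of the 37 inside a piRNA gene itself, 9 bp from its 5′ end, and the snRNA gene smy-8 lay within 200 bp.

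The other 7 right-interval summits had neither a promoter nor a structural RNA gene. The highest was at 21ur-11151 (263; 173 and 89.8), in intergenic sequence 158 bp downstream of the 5′ end. The summit at 21ur-15698 (151) was 1 of 2 listed for the same peak interval, which overlapped peaks of 238 and 213 in the replicates. The other summit of that peak, 329 bp from the nearest piRNA gene, had a signal of 475, among the 3 highest of the right interval. Weaker summits lay at 21ur-3443 (107; 65.9 and 40.9), in an intron of Y105C5A.15, and at 21ur-15333 (101), with a thresholded peak of 61.3 in replicate 2 alone. Those at 21ur-6987 (86.8), 21ur-5858 (86.0) and 21ur-6325 (83.6) overlapped no thresholded peak of either replicate. Only the summit at 21ur-5858, 186 bp upstream, lay on the upstream side of its piRNA gene among these 7; the others lay downstream of the 5′ end.

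The Ruby motif was not more frequent where peaks were found. CTGTTTCA lay within 60 bp upstream of 10 of the 47 piRNA genes near a main-list summit (21.3%; 10.7 to 35.7%) and 33.6% of the 15316 others. Among right-interval genes the shares were 8 of 25 (32%; 14.9 to 53.5%) and 33.6%, and elsewhere 1 of 18 and 17.9%. In windows of 50 bp on each side of the summits themselves, searched on both strands, the motif lay in 0 of 15 summits at piRNA genes in the right interval (upper limit 21.8%) and in 1 of 5 in the left interval. Of the ranked candidates at piRNA genes in the right interval 10.5% held it (71 of 676; 8.29 to 13.1%), beside 14.4% of tiled windows of the same length whose centre lay within 200 bp of a piRNA gene. Of the candidates there not at piRNA genes 0.563% held it (7 of 1243), beside 1.83% of the tiled windows away from piRNA genes. A motif match is a description of the letters and says nothing of the factor that reads them.

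Promoter peaks were found at a part of the protein-coding genes whose products make or use piRNAs. Of 65 listed pathway genes 62 matched the annotation, and 19 had a main-list promoter summit nearest to their 5′ end (30.6%; 19.6 to 43.7%), beside 7.15% of all protein-coding genes. Replicate 1's list gave 23 and replicate 2's 12. The list was made with earlier results of these data known, and peaks at promoters of germline genes in general were not separated from it.

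Among 19 genes for piRNA transcription, 6 had a promoter summit. The highest was at snpc-3.4 (538; 356 and 185), an SNAPc-family gene, 36 bp upstream of its 5′ end. Next came attf-6 (223; 128 and 92.8), which encodes an AT-hook protein. The summit at prde-1 (121; 66.5 and 59.96), whose product is required for transcription of the motif-dependent genes, lay 127 bp upstream. Others were at snpc-3.2 (126), snpc-1.2 (113) and the meiotic chromatin gene xnd-1 (109), each in replicate 1's list and not in replicate 2's. At snpc-4, tofu-4 and tofu-5, whose proteins act at piRNA promoters, the promoter window held no summit in the main list or in either replicate's own list. That of snpc-3.1 held a summit (193; 132 and 53.7) nearer to the 5′ end of another gene.

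Among 14 genes for piRNA processing, 5 had a promoter summit. The summit at tofu-6 (247; 156 and 97.7) was the highest and that at pid-3 (135; 84.2 and 55.7) the next; both encode subunits of the complex that processes piRNA precursors. Summits at ife-3 (115), a gene for a cap-binding protein of the same complex, slfl-3 (101), a Schlafen-domain gene, and tofu-7 (89.3) were in replicate 1's list and not in replicate 2's.

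Among 29 genes for piRNA effectors and the small RNA pathways downstream, 8 had a promoter summit. The Argonaute gene wago-4 (237; 148 and 95.7) had the highest, followed by znfx-1 (231; 149 and 76.2), a helicase gene of Z granules, and glh-1 (227; 166 and 56.5), a helicase gene of P granules. The P granule gene pgl-3 (191; 124 and 53.7), the helicase gene rde-12 (160; 91.4 and 60.9) and the RNA-dependent RNA polymerase gene ego-1 (138; 80.3 and 62.6) also had peaks in both replicates' lists. Summits at pid-2 (117) and the nuclear RNAi gene nrde-4 (105) were in replicate 1's list and not in replicate 2's. The ego-1 summit is also that of a piRNA gene elsewhere, 21ur-14981, which lies 179 bp downstream of it. The window of the nuclear Argonaute gene hrde-1 held a summit (303; 193 and 120), as did that of the nuclear RNAi gene nrde-2 (513; 297 and 224), but each was nearer to the 5′ end of another gene. Counted without regard to the nearest 5′ end, 28 of 62 pathway genes had a summit in the promoter window, beside 9.79% of all protein-coding genes. The window of prg-1, the gene of the Piwi protein that binds piRNAs, held none in the main list or in either replicate's own list. Its 5′ end is 213 bp from that of D2030.7, the tagged gene itself, on the opposite strand.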

How the data were processed

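ChIP-seq peak lists for 2 biological replicates of 1 group were used: a thresholded and a ranked list for each replicate and for 2 pooled sets, 8 lists in all. The build is ce11 (WBcel235), per the file headers and the labels; which aligner and which peak caller were used is not given in the sources used here. Each peak's signal is the authors' own value as deposited, used only within a list. The ranked lists hold −log10 of the irreproducible discovery rate, as deposited by the authors; 2868 candidates reached 2, of which 2777 are in the main list, and none of the 91 left out lay at a piRNA gene. The lists give no counts, so library depth is unknown.

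Summits, 1-based, were compared with Ensembl release 115 genes using Python 3.11.15, NumPy 2.4.6, pandas 2.3.3 and SciPy 1.17.1. A gene counted as bound with a summit within 200 bp. With 1 group no test between conditions is possible; values are counts, densities and exact 95% binomial intervals, with the 2 replicate lists (n = 2) as the spread. The labels call the replicates biological and do not say whether they share a culture. The counting was tested on simulated summits. Named genes follow a rule: the 6 highest signals per class, overall and away from promoters and structural RNA genes, and every pathway gene with a summit; 21ur-6325, 21ur-14981, rpl-20, snpc-3.1, hrde-1, nrde-2 and genes named at the distance limit or as lacking a summit fall outside it and were chosen after their values were seen. Members and lists were chosen with earlier results of these data known. Alternatives were other distances, lists, interval bounds and exclusions. No sequence of chromosome I is shown.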

Additional observations from a re-analysis of the deposited data

How the results depend on the processing

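The number of piRNA genes near a summit, 47, was 24 within 100 bp and 145 within 500 bp, 29 with the stronger 1 in 2 peaks, 26 without summits at structural RNA genes, 29 without promoter summits and 13 without either kind, an exclusion added after the data were seen; single replicate lists gave 33 to 42. The left interval's density over the rest of IV (0.915) ranged from 0.864 to 1.12 in the replicate lists and was 1.11 for the stronger 1 in 2 peaks and 0.721 without promoter and structural RNA summits. The right interval's (1.08) ranged from 0.918 to 1.01 in the replicates and was 1.18 for the stronger 1 in 2 peaks, 0.864 without structural RNA summits, 1.75 without promoter summits and 1.46 without either. The ratio of shares past the threshold at piRNA genes over other candidates of IV (0.612; 0.498 to 0.624 in the replicates) was 0.388 within 100 bp, 1.02 within 500 bp, 0.403 without structural RNA summits, 0.928 without promoter summits and 0.718 without either, so its side of 1 rests on the distance. The density ratio near piRNA genes against away (0.145; 0.147 to 0.153 in the replicates) stayed under 1 in every setting: 0.100 within 100 bp, 0.263 within 500 bp, 0.151 for the stronger peaks, 0.0895 without structural RNA summits, 0.252 without promoter summits, 0.131 with repeated intervals counted once, 0.204 without either kind of summit over the whole sequence and 0.413 in the ranked candidates. The motif share (33.5%) was 63.3% for GTTTCA within 60 bp, 62.5% with its first base 31 to 60 bp upstream and 74.2% for GTTTC. Pathway genes with a promoter summit (19) numbered 12 to 23 in the replicate lists and 28 when any summit in the window counted. Where a setting leaves out summits or narrows the distance, fewer summits enter by construction; for the other values that moved the cause was not tested. No paired analysis was possible because there is 1 group. Lists without counts give no depth, so a piRNA gene with no peak may be under the detection limit of these libraries.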
